A study of Mus musculus with 6 samples.

Results

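The nuclear genes for subunits of the mitochondrial respiratory chain and ATP synthase were followed in mouse embryonic stem cells given 4OHT or vehicle. They were taken by name: symbols starting with Ndufa, Ndufb, Ndufc, Ndufs or Ndufv and a digit, Ndufab1, Sdha to Sdhd, and symbols starting with Uqcr, with Cox and a digit from 4 to 8, or with Atp5. Of 23999 gene symbols, 85 matched, and 84 remained after Ndufa4l2 was left out. They comprised 36 genes of complex I, 4 of complex II, 8 of complex III, 19 of complex IV and 15 of complex V. The remaining 2, Atp5s and Atp5sl, share the name but are not subunits, though they stay in the counts of subunit genes over the whole set, and Ndufa4 was counted with complex IV, where its protein is now placed. Polyadenylated RNA was sequenced from 6 samples of cultured murine ESC, all of a genotype labelled as -5 floxed with exogenous mNanogV5. In these cells the -5 element is flanked by loxP sites and a V5-tagged mouse Nanog is supplied, in the vehicle samples too. Of these samples, 3 had 6 days of ethanol (vehicle) and 3 had 6 days of tamoxifen (4OHT), in a study whose title concerns a Nanog enhancer. The labels used here name no Cre driver, clone number or separate cultures, so the p-values measure the spread between these samples, which may be technical. No vehicle sample received 4OHT, so an effect of the ligand and one of any recombination cannot be told apart.

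Complexes I and II feed electrons from NADH and from succinate into coenzyme Q, complex III passes them to cytochrome c, and complex IV passes them to oxygen. Complexes I, III and IV pump protons across the inner mitochondrial membrane, and complex V, the ATP synthase, lets them flow back to make ATP. Apart from complex II, which is wholly nuclear-encoded, each complex joins nuclear-encoded subunits to a few made from mitochondrial DNA. Embryonic stem cells are known for a strong use of glycolysis with a working respiratory chain beside it.

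The library totals ran from 20030423 to 55194644 counts, except for 515388 in 4OHT 2, where 1 read was worth 1.91 CPM (reads relative to the TMM-scaled library total). The median tested subunit gene had 51 reads in that library and 2170 to 5068 in the other 5. Nanog, the gene under study, measured 631, 660 and 641 CPM in vehicle 1, 2 and 3 and 177, 172 and 194 CPM in 4OHT 1, 2 and 3. The counts do not separate the endogenous from the exogenous Nanog. The summed markers of embryonic stem cells (8 genes, Nanog among them) were 6360 to 6560 CPM in vehicle and 5710 to 6050 CPM in 4OHT. Nanog itself fell from a mean of 644 CPM to 181 CPM. By edgeR Nanog (log2 fold change -1.81) and Pou5f1 (-0.21) fell, Sox2 rose (0.18) and 5 of the 8 did not pass. The summed markers of primitive and visceral endoderm (8 genes, of which 7 rose by edgeR) were 7.58 to 8.76 CPM in vehicle and 47.7 to 63.9 CPM in 4OHT. Those of fibroblasts, the usual feeder cells, were 24.4 to 26.1 CPM and 14 to 19.1 CPM over 8 genes. The fall in this sum was that of Thy1, which fell from 15.5, 15.6 and 16.4 CPM to 5.94, 7.64 and 6.43 CPM, while Col1a1, Col1a2 and Pdgfrb did not pass. Postn had no read in any library, and Col3a1, Dcn and Lum had at most 2 reads in each. The part of other cell types in the results below was not tested.

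Of the 84 genes, 81 had enough reads to be tested, 79 of them in a complex and the others Atp5s and Atp5sl. In 4OHT 14 of them fell (17.3%) and 0 rose by edgeR's quasi-likelihood test at an adjusted p under 0.05, beside 10.5% lower and 11.9% higher (22.4% in either direction) of all 14458 tested genes. The 14 were Ndufa8, Ndufv3, Ndufb4 and Ndufa7 of complex I, Sdhb of complex II, Uqcr11 and Uqcrq of complex III, Cox8a, Cox7a2l, Cox7c, Cox6c and Cox6b1 of complex IV, and Atp5k and Atp5h of complex V. Their fitted levels in 4OHT ran from 73.7% of vehicle for Ndufa8 to 88.3% for Cox6b1. The median log2 fold change of the 81 genes was -0.11, with a range from -0.44 to 0.18, against a median of 0 over all tested genes. Fold changes were below 0 for 69 of them (85.2%, against 50.7% of all tested genes). All 3 4OHT samples lay below all 3 vehicle samples for 19 of the genes (23.5%, against 16.5% of all) and above them for 1, Ndufa12 (against 14.7% of all). At an unadjusted p under 0.05, edgeR gave 28 lower and 0 higher. The share of all tested genes at that threshold is not given here, so these counts stand without a background. In these bulk samples, fewer cells of a type and less RNA per cell cannot be told apart.

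The count of 14 depended on the fit and on single libraries. With the replicate number as a block, 29 subunit genes were lower (background 13.5%) and 1, Cox4i1, was higher (background 14.6%). DESeq2 called 4 lower (background 2.83%) and 0 higher. Unadjusted it gave 15 and 0, again without a background, and it gave no adjusted p for 3 of the genes. The 4 that DESeq2 called were Ndufa8, Sdhb, Cox8a and Atp5k, which also passed under every other alternative. With an offset for transcript length and GC content in each library, 9 were lower (11.1%, near the background of 11.8%). With this offset 3, Cox4i1, Cox6b2 and Ndufa12, were higher (3.7%, background 13.2%). Leaving out vehicle 2 or vehicle 3 gave 8 lower each (backgrounds 7.76% and 7.87%), leaving out vehicle 1 gave 24 (background 8.71%), and leaving out 4OHT 3 gave 43 (background 13.9%). Without 4OHT 1 the count was 11 lower (background 12.2%) and 2 higher (background 13.4%), and the median log2 fold change was -0.04. Without the shallow 4OHT 2 it was 13 lower (background 9.56%), with a median of -0.11.

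**Figure D1:**
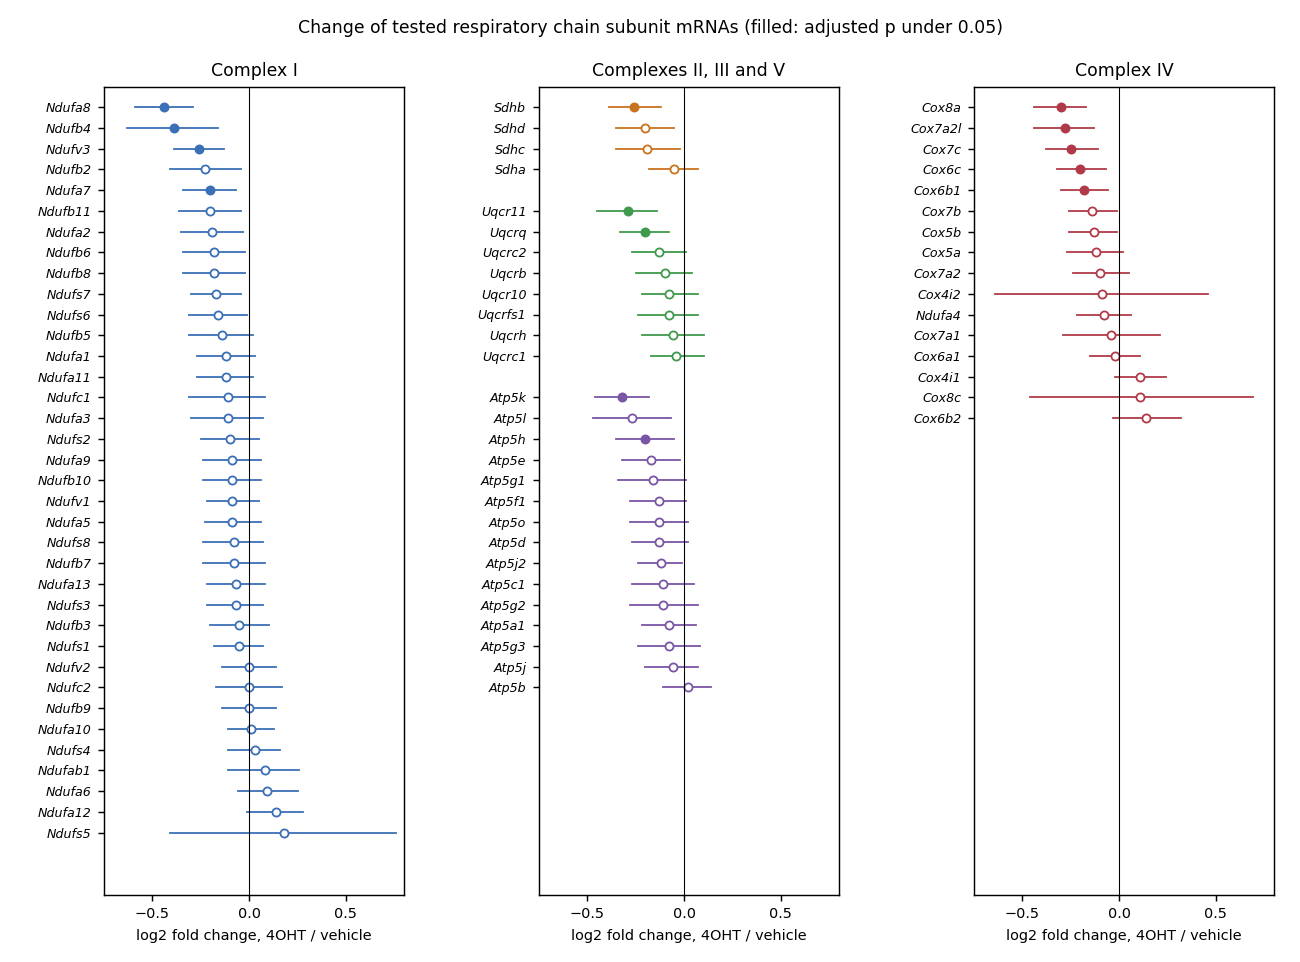
Log2 fold change of each tested subunit gene, 4OHT over vehicle (x axis, point: edgeR estimate over 3 samples in each group, line: 95% interval), by complex (colour). Filled points mark the genes with an adjusted p under 0.05, and all 14 lie left of 0.

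Promoter sequences were compared because the nuclear respiratory factors NRF1 and GABP (an ETS factor), YY1 and the oestrogen-related receptors are known to act on genes of this family. RefSeq promoter windows on GRCm38.p6, of 300 bases with 250 before the transcription start, matched 68 of the 84 genes by symbol. Both strands were searched, and a gene counts when any of its windows holds the motif. The NRF1 motif, a palindrome shown in capitals in the Atp5k and Atp5g2 lines, occurred for 5 of the 68 genes (7.35%) and 1.07% of all 27025 genes with a window. The ETS motif CCGGAAGT occurred for 5 (7.35%, against 4.31%), the YY1 motif, a stretch around the core ATGGC, for 5 (7.35%, against 0.755%) and the receptor motif TCAAGGTCA for 2 (2.94%, against 0.466%). These shares are over all genes with a window, tested or not. Among tested genes with a window, 901 held the ETS motif and 9746 did not, beside 5 and 61 subunit genes. On these counts the ETS motif was not more frequent among the subunit genes than among all tested genes. For NRF1 the counts were 242 and 10405, and for YY1 179 and 10468, each beside 5 and 61 subunit genes. For the receptor motif they were 36 and 10611, beside 2 and 64. None of these motifs holds another one. The lines show 120 bases, 100 before the start and 20 from it on, with the motif in capitals, for 4 genes that fell and 2 that did not pass, picked after their values were seen. They lie on the minus strand at chr19:7217597-7217716, chr10:80406802-80406921, chr11:115419900-115420019, chr4:116075051-116075170, chr5:108434380-108434499 and chr15:102671028-102671147, in the order shown, and are read 5′ to 3′ along the gene. The first 4 carry the ETS motif, on the gene's own strand in Uqcr11 and on the opposite strand, where it reads ACTTCCGG, in the others. The last 2 carry the NRF1 motif.
Cox8a: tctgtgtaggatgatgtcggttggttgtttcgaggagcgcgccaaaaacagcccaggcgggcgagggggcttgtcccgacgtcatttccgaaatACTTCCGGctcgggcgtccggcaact
Uqcr11: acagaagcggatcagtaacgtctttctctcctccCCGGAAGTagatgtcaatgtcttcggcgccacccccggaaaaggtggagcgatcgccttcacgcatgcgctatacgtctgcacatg
Atp5h: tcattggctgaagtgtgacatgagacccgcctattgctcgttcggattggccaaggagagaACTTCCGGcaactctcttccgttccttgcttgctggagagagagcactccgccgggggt
Uqcrh: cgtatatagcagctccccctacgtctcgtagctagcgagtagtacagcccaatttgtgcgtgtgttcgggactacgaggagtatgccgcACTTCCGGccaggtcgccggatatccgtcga
Atp5k: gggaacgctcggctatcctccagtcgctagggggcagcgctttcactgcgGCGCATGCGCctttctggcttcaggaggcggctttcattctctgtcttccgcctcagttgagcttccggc
Atp5g2: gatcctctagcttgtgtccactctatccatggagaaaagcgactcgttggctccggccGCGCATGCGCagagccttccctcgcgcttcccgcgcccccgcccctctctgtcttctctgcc

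The ETS motif begins 6 bases before the start in Cox8a, 66 in Uqcr11, 39 in Atp5h and 11 in Uqcrh, and the NRF1 motif begins 50 before it in Atp5k and 42 in Atp5g2. Of the 5 tested subunit genes with the ETS motif, Cox8a, Uqcr11 and Atp5h fell, while Uqcrh (log2 fold change -0.06) and Ndufs3 (-0.07) did not pass. Over all tested genes with this motif, 5.44% fell. Of the 5 with the NRF1 motif, Atp5k alone fell (4.55% over all such genes). None of the 5 with the YY1 motif fell (3.91% over all such genes), nor did the 2 with the receptor motif (5.56%). A match of letters is a description, not a binding site.

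Complex I takes electrons from NADH through an arm in the matrix and pumps protons through an arm in the membrane. Of its 36 nuclear genes 4 fell (11.1%, near the 10.5% of all tested genes), and the median log2 fold change of the 36 was -0.09. The 4 were among the 29 genes (13.8%, median -0.11) for supernumerary subunits, which surround the catalytic core, and none of the 7 nuclear core genes passed (median -0.08). This split by role was made after the values were seen, and the difference between the roles was not tested. With the length and GC offset the medians were -0.03 for the supernumerary genes, -0.04 for the core genes and -0.03 for the complex. With the replicate block 11 complex I genes were lower (30.6%, against 13.5% of all tested genes). Leaving out vehicle 2 or 4OHT 1 gave 2 (backgrounds 7.76% and 12.2%). Leaving out vehicle 1 gave 10 (background 8.71%), and leaving out 4OHT 3 gave 18 (background 13.9%).

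Ndufa8, a supernumerary subunit on the intermembrane side, measured 75, 80.8 and 80.2 CPM in vehicle 1, 2 and 3 and 55, 45.8 and 62.1 CPM in 4OHT 1, 2 and 3. All 4OHT samples lay below all vehicle samples, and 4OHT 2 was the lowest. The log2 fold change was -0.44 (SE 0.07, edgeR adjusted p = 9.23e-05, n = 3 in each group), the largest fall among the 81 genes. Ndufv3, an accessory subunit beside the NADH-binding site, measured 80, 77.9 and 75.8 CPM in vehicle and 67, 61.1 and 63.6 CPM in 4OHT, with no overlap between the groups. Its log2 fold change was -0.26 (SE 0.06, edgeR adjusted p = 0.00422). Ndufb4, a subunit of the membrane arm, was a low gene, with 12.6, 15.4 and 12.5 CPM in vehicle and 9.23, 9.55 and 11.4 CPM in 4OHT. The groups did not overlap, although 4OHT 3 came close to vehicle 1 and 3, and the 4OHT 2 value rests on 5 reads. Its log2 fold change was -0.39 (SE 0.11, adjusted p = 0.0151 by edgeR), which became -0.23 with an adjusted p of 0.142 without 4OHT 1 and -0.31 with 0.0827 without vehicle 2.

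Ndufa7, an accessory subunit of the matrix arm, measured 131, 134 and 127 CPM in vehicle and 106, 113 and 121 CPM in 4OHT. The groups were apart, with 4OHT 1 the lowest sample. It fell by 0.20 (log2, SE 0.06, edgeR adjusted p = 0.0277), and the adjusted p was 0.196 without 4OHT 1, 0.0969 without vehicle 2, 0.0547 without vehicle 3 and 0.128 with the length and GC offset. Ndufs7, a core subunit that holds the iron-sulfur cluster next to coenzyme Q, measured 76.2, 79.6 and 72.5 CPM in vehicle and 66.3, 64.9 and 69.2 CPM in 4OHT. Its groups did not overlap either, but it just missed the threshold (log2 fold change -0.17, SE 0.06, edgeR adjusted p = 0.0583), and passed with the replicate block (0.0487). The large core subunit Ndufs1, which carries iron-sulfur clusters, measured 316, 326 and 338 CPM in vehicle and 314, 286 and 324 CPM in 4OHT, overlapping (log2 fold change -0.05, adjusted p = 0.568). Ndufa12, an accessory subunit of the matrix arm, measured 38.6, 37.2 and 38.4 CPM in vehicle and 42.2, 53.5 and 40.7 CPM in 4OHT. It was above vehicle in every 4OHT sample without passing (log2 fold change 0.14, adjusted p = 0.167, and 0.0391 with the length and GC offset). Ndufs1 and Ndufa12 were chosen after their values were seen.

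Ndufs5 was nearly without reads, at 0.775, 0.498 and 0.533 CPM in vehicle and 0.767, 0 and 0.686 CPM in 4OHT. The table also lists BC002163, whose transcript is near-identical to that of Ndufs5, at 11.2 to 12.6 CPM in vehicle and 11.9 to 15.3 CPM in 4OHT. How the authors' counting shared reads between these genes is not given in the sources used here, so the level of Ndufs5 is uncertain.

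Complex II, succinate dehydrogenase, also works in the citrate cycle. Of its 4 genes 1, Sdhb, fell (25%, against 10.5% of all tested genes), and the median log2 fold change was -0.19. Sdhb, which carries the iron-sulfur clusters, measured 114, 125 and 123 CPM in vehicle and 95.7, 97.4 and 107 CPM in 4OHT. The groups did not overlap, and the log2 fold change was -0.26 (SE 0.07, edgeR adjusted p = 0.00761). The membrane anchor Sdhd measured 133, 143 and 153 CPM in vehicle and 115, 126 and 134 CPM in 4OHT, where 4OHT 3 overlapped vehicle 1. It missed the threshold narrowly (log2 fold change -0.20, SE 0.07, edgeR adjusted p = 0.0502). Sdhc, the other anchor, measured 176, 187 and 198 CPM in vehicle and 145, 206 and 174 CPM in 4OHT, so that 4OHT 2 was the highest of the 6 samples. Its log2 fold change was -0.19 (SE 0.08, edgeR adjusted p = 0.102). Sdha, the flavin-bearing subunit that oxidises succinate, measured 299, 310 and 318 CPM in vehicle and 289, 277 and 313 CPM in 4OHT, with overlap (log2 fold change -0.05, adjusted p = 0.586). With the replicate block 3 of the 4 were lower (background 13.5%), Sdhd (adjusted p = 0.00148) and Sdhc (0.0017) beside Sdhb. The count was also 3 without vehicle 1 and without 4OHT 3 (backgrounds 8.71% and 13.9%). It was 1 without any other single library (backgrounds 7.76% to 12.2%).

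Complex III had 2 of 8 genes lower (25%, against 10.5% of all tested genes) and a median log2 fold change of -0.09. Both encode small subunits outside the catalytic centre (2 of 5), while none of the core proteins and the Rieske protein passed (0 of 3). This split was made after the values were seen. With the length and GC offset the medians were -0.01 for the small subunits, -0.04 for the core and Rieske proteins and -0.03 for the complex. Uqcr11 measured 92.9, 95.5 and 95.6 CPM in vehicle and 76.7, 47.7 and 81.3 CPM in 4OHT. The groups were apart and 4OHT 2 was far the lowest (log2 fold change -0.29, SE 0.07, edgeR adjusted p = 0.00607). Uqcrq, which lies near the coenzyme Q site, measured 138, 143 and 142 CPM in vehicle and 119, 134 and 124 CPM in 4OHT. It fell by 0.20 (log2, SE 0.06, edgeR adjusted p = 0.0166), with an adjusted p of 0.0792 without vehicle 2, 0.0713 without vehicle 3 and 0.0927 with the length and GC offset. The core protein Uqcrc2 (log2 fold change -0.13, adjusted p = 0.187) and the small subunits Uqcrb (-0.10, 0.329) and Uqcr10 (-0.08, 0.474) overlapped between the groups. Leaving out vehicle 2 or vehicle 3 gave 1 lower gene in complex III (backgrounds 7.76% and 7.87%). Leaving out vehicle 1 gave 3 (background 8.71%) and leaving out 4OHT 3 gave 4 (background 13.9%).

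Complex IV, cytochrome c oxidase, takes its catalytic subunits from mitochondrial DNA, and its nuclear subunits surround them. Of 16 tested genes 5 fell (31.2%, against 10.5% of all tested genes) and 0 rose (against 11.9%), with a median log2 fold change of -0.11. With the length and GC offset 3 were lower (18.8%, background 11.8%), 2 were higher (12.5%, background 13.2%) and the median was -0.03. DESeq2 called 1 lower (background 2.83%). Cox8a, the smallest subunit, measured 280, 287 and 291 CPM in vehicle and 213, 262 and 242 CPM in 4OHT. Every 4OHT sample was below every vehicle sample and 4OHT 1 was the lowest (log2 fold change -0.30, SE 0.07, edgeR adjusted p = 0.00193). Cox7a2l, known for joining complexes III and IV in supercomplexes, measured 80.3, 88.7 and 90.1 CPM in vehicle and 65.4, 80.2 and 75.5 CPM in 4OHT. The groups met without overlapping, since 4OHT 2 lay just under vehicle 1 (log2 fold change -0.28, SE 0.07, edgeR adjusted p = 0.00697). Leaving out vehicle 3 gave 2 lower genes in complex IV (background 7.87%). Leaving out vehicle 2 gave 3 (background 7.76%) and leaving out 4OHT 3 gave 8 (background 13.9%).

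The other 3 encode subunits with a single membrane span (Cox7c, Cox6c) or on the intermembrane side (Cox6b1). Cox7c measured 128, 123 and 139 CPM in vehicle and 106, 103 and 114 CPM in 4OHT, with the groups apart (log2 fold change -0.25, SE 0.06, edgeR adjusted p = 0.00794, and 0.073 without vehicle 3). Its transcript has a near-identical copy elsewhere in the genome, so its reads may be shared. Cox6c measured 165, 173 and 173 CPM in vehicle and 145, 158 and 151 CPM in 4OHT, again without overlap. It fell by 0.20 (log2, SE 0.06, edgeR adjusted p = 0.0196), with an adjusted p of 0.0907 without vehicle 2, 0.0954 without vehicle 3 and 0.128 with the length and GC offset. Cox6b1 measured 165, 159 and 158 CPM in vehicle and 145, 147 and 139 CPM in 4OHT. The groups were apart (log2 fold change -0.18, SE 0.06, edgeR adjusted p = 0.0309), but leaving out vehicle 1, 2 or 3 or 4OHT 3 took the adjusted p to between 0.0712 and 0.0898, and the length and GC offset took it to 0.268.

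Cox4i1, the ubiquitous form of subunit 4, measured 616, 662 and 635 CPM in vehicle and 643, 697 and 726 CPM in 4OHT. It overlapped between the groups, and its log2 fold change was 0.11 (SE 0.06, edgeR adjusted p = 0.238). It was higher with the replicate block (adjusted p = 0.0414), with the length and GC offset (0.0141) and without 4OHT 1 (0.0182). Its hypoxia-induced paralog Cox4i2 had 0.647 to 0.794 CPM in vehicle and at most 0.767 CPM in 4OHT, which per kb of transcript was at most 0.132 for each 100 of Cox4i1.

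Several complex IV subunits have forms tied to heart and skeletal muscle or to testis, and here the broadly expressed form held most of the reads in each pair. The muscle form Cox6a2 had at most 2 reads in any library, and Cox8b had 2 reads in 4OHT 3 and none elsewhere. The testis form Cox7b2 had 4 reads in each vehicle library and 24, 0 and 9 reads in 4OHT 1, 2 and 3. These 3 genes were too low to be tested. Cox8c, another testis form, had 0.597 to 1.07 CPM in vehicle and 0 to 1.11 CPM in 4OHT.

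The testis form Cox6b2 had the largest share in vehicle among the forms tied to another tissue, at 10.2, 10.6 and 10.7 per 100 of Cox6b1 in vehicle and 12.8, 8.71 and 13.8 in 4OHT (CPM per kb). Here 4OHT 2 was the lowest and the other 4OHT samples the highest. Cox6b2 itself measured 15.1, 15.1 and 15.2 CPM in vehicle and 16.6, 11.5 and 17.1 CPM in 4OHT (log2 fold change 0.14, SE 0.09, edgeR adjusted p = 0.255, and 0.0384 with the length and GC offset). The muscle form Cox7a1 stood at 6.33 to 8.54 per 100 of Cox7a2 in vehicle and 7.06 to 12 in 4OHT. The broad forms Cox6a1 (log2 fold change -0.02, adjusted p = 0.892), Cox7a2 (-0.10, 0.353) and Cox7b (-0.14, 0.103, and 0.0285 with the block) did not pass.

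**Figure D2:**
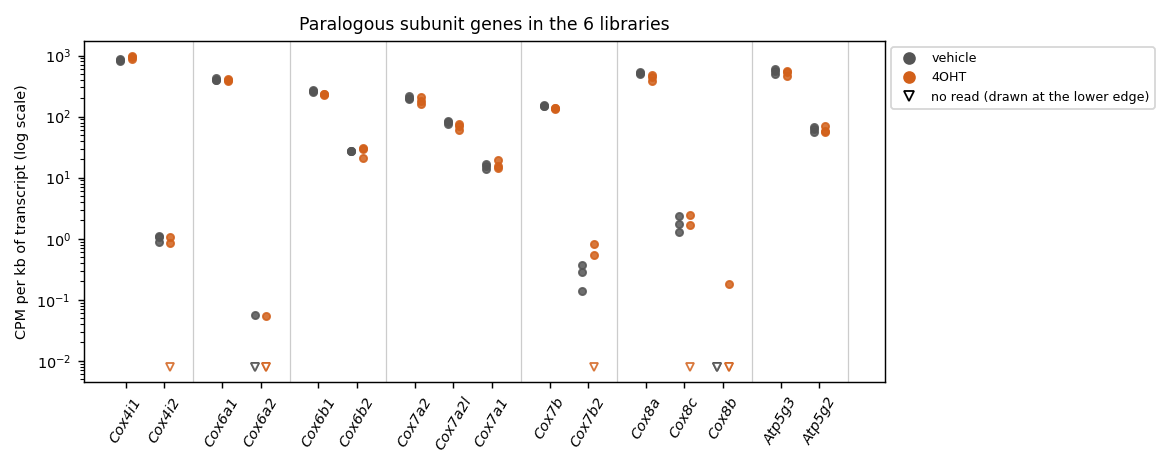
CPM per kb of transcript (log axis) of paralogous subunit genes in the 3 vehicle (grey) and 3 4OHT (orange) samples, with samples without a read drawn as open triangles at the lower edge. The broad forms lie above their tissue-bound paralogs in each of these groups, and Cox4i2 is at most 0.132 per 100 of Cox4i1.

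Complex V consists of a catalytic head and central stalk, called F1, and a membrane part with a peripheral stalk. Of its 15 genes 2 fell (13.3%, near the 10.5% of all tested genes). Both were of the membrane part and peripheral stalk (2 of 10, median log2 fold change -0.13), and none of the 5 F1 genes passed (median -0.11). The median over the complex was -0.13, and the split by role was made after the values were seen. With the length and GC offset the median was -0.08 for either part and for the complex. Atp5k, subunit e, which helps ATP synthases pair into dimers, measured 66.3, 72.1 and 75.3 CPM in vehicle and 56.2, 61.1 and 57.5 CPM in 4OHT. The groups did not overlap, and the log2 fold change was -0.32 (SE 0.07, edgeR adjusted p = 0.0014). Atp5h, a peripheral stalk subunit, measured 93.4, 104 and 109 CPM in vehicle and 83.2, 91.6 and 94 CPM in 4OHT, so 4OHT 3 lay above vehicle 1. It passed narrowly (log2 fold change -0.20, SE 0.07, edgeR adjusted p = 0.0492), but not without vehicle 2 (0.116), vehicle 3 (0.235), 4OHT 1 (0.208) or 4OHT 2 (0.0826), nor with the length and GC offset (0.14). Both genes have near-identical copies, 1 for Atp5k and 3 for Atp5h.

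With the replicate block 7 complex V genes were lower (background 13.5%), among them Atp5l, Atp5e and Atp5g1. Leaving out vehicle 1 gave 4 (background 8.71%) and leaving out 4OHT 3 gave 10 (background 13.9%). Leaving out any other single library gave 1 (backgrounds 7.76% to 12.2%). Atp5l, subunit g and a partner of subunit e, measured 16.1, 17 and 17.6 CPM in vehicle and 12.8, 9.55 and 15.6 CPM in 4OHT. The groups were apart, with an adjusted p of 0.0518 (edgeR log2 fold change -0.27, SE 0.1, and 0.0148 with the block). With 5 reads in 4OHT 2 and 9 near-identical genes, its count is uncertain. Atp5e, the smallest subunit of the central stalk (-0.17, adjusted p = 0.0973, and 0.0217 with the block) overlapped between the groups. Atp5j2, subunit f of the membrane part, did not overlap but did not pass (-0.12, adjusted p = 0.126).

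The catalytic subunit Atp5b measured 2640, 2860 and 2860 CPM in vehicle and 2690, 2800 and 2960 CPM in 4OHT, with overlap (log2 fold change 0.02, adjusted p = 0.9). Per kb it had the highest level of the tested subunit genes, 1460 CPM per kb over the vehicle samples, ahead of Cox4i1 with 856. Atp5g1, Atp5g2 and Atp5g3 all encode the same mature protein of the rotating c ring. Atp5g3 measured 356, 401 and 423 CPM in vehicle and 333, 386 and 404 CPM in 4OHT, and Atp5g2 stood at 9.98 to 12.4 per 100 of it in vehicle and 10.4 to 12.8 in 4OHT (CPM per kb). None of the 3 passed, with log2 fold changes of -0.08 for Atp5g3, -0.11 for Atp5g2 and -0.16 for Atp5g1 (adjusted p = 0.168, and 0.0156 with the block). Atp5g1 was left out of the comparison per kb because its annotated transcripts differ widely in length.

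Summed over its genes, each complex had a lower mean in 4OHT than in vehicle, with overlap between the samples. Complex I summed to 3157, 3372 and 3398 CPM in vehicle 1, 2 and 3 and to 2916, 3087 and 3270 CPM in 4OHT 1, 2 and 3, so that 4OHT 3 lay above vehicle 1. Between samples of the same number, the sum was lower in 4OHT in 3 of 3 pairs, for each complex and for all 84 genes. All these counts rest on the same 3 pairs, and no label says what a number marks. Over genes, vehicle 2 correlated more with 4OHT 3 (0.45) than with 4OHT 2 (0.15). The sum over all 84 genes was 15040 ± 665 CPM in vehicle and 14240 ± 849 CPM in 4OHT (SD, n = 3), or 94.6% of vehicle. By complex, 4OHT stood at 93.4% of vehicle for I, 91.3% for II, 93% for III, 94.3% for IV and 96.1% for V. No test was made of the sums. The sums weigh abundant genes most, and Atp5a1 and Atp5b alone make up much of complex V.

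**Figure D3:**
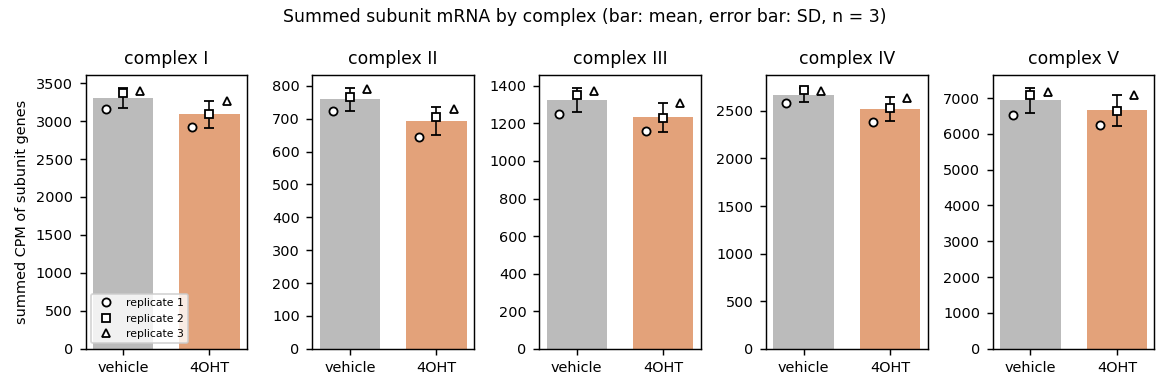
Summed CPM of the subunit genes of each complex in vehicle and 4OHT (bar: mean, error bar: SD, n = 3, symbols: replicates). In complex I the 4OHT mean is 93.4% of vehicle and in complex V 96.1%, and the samples of both groups overlap in each panel, while in each the 4OHT sample lies below the vehicle sample of the same number.

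The subunit genes also moved together between samples of the same group. Vehicle 1 lay below both vehicle 2 and vehicle 3 for 62 of the 81 tested genes (76.5%, against 34.7% of all tested genes). Within 4OHT, sample 1 lay below sample 3 for 70 (86.4%, against 53.5%). The samples numbered 1 were the deepest of their groups, and the part of depth was not tested. Sample 4OHT 1 was below all vehicle samples for 68 of the genes (84%, against 36.3% of all), 4OHT 2 for 53 (65.4%, against 51.6%) and 4OHT 3 for 23 (28.4%, against 36.1%). The median subunit gene stood at -0.07, 0.02 and 0.04 (log2 difference from the vehicle mean) in vehicle 1, 2 and 3, and at -0.19, -0.12 and -0.02 in 4OHT 1, 2 and 3. Over all tested genes this median was 0 in every library except 4OHT 2, where it was -0.09. The median subunit gene of 4OHT 3 thus stood above that of vehicle 1.

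When each 4OHT sample was set against the vehicle sample of the same number, 73, 66 and 63 of the 81 genes were lower in 4OHT (90.1%, 81.5% and 77.8%) for numbers 1, 2 and 3. The shares over all tested genes were 50.2%, 57.4% and 49.6%. The median log2 differences of the subunit genes were -0.12, -0.16 and -0.08. What the numbers mark is not given by any label.

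**Figure D4:**
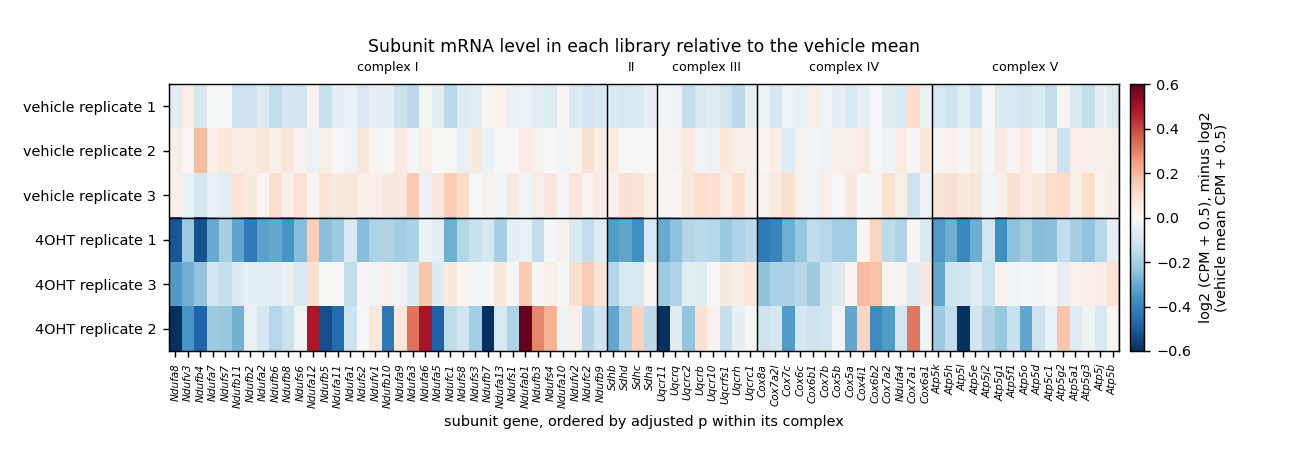
Level of 76 subunit genes with a vehicle mean of at least 5 CPM (columns, by complex and by adjusted p) in each library (rows), as log2 (CPM + 0.5) minus that of the vehicle mean. Sample 4OHT 1 is blue across most columns (median of the tested genes -0.19), 4OHT 3 is near white (-0.02), and vehicle 1 is paler blue (-0.07).

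Most of these genes have short transcripts, and fold changes varied weakly with transcript length. The median transcript of the 81 tested genes was 763 bases (range 371 to 4660), against 2788.5 over all tested genes with a known length, and 3 of the 81 were longer than that. Among all 731 tested genes up to 763 bases, 10.4% fell and 3.56% rose, with a median log2 fold change of -0.06. Among the 41 subunit genes of that length 9 fell (22%). Among the 40 longer ones 5 fell (12.5%, near the 10.5% of all longer genes). With the length and GC offset 4 of the 41 were lower (9.76%, against 6.7% of all genes up to that length). Of the 40 longer ones 5 were lower with it (12.5%, near the 12.1% of all longer genes). With the length and GC offset the median log2 fold change of the subunit genes was -0.06, against -0.11 without it. Across genes, which are not independent replicates, Spearman's rho between fold change and length was 0.19 over the 81 genes and 0.14 over 14328 tested genes. Among the 69 tested subunit genes without a near-identical copy, 11 fell (15.9%, against 10.5% of all tested genes).

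**Figure D5:**
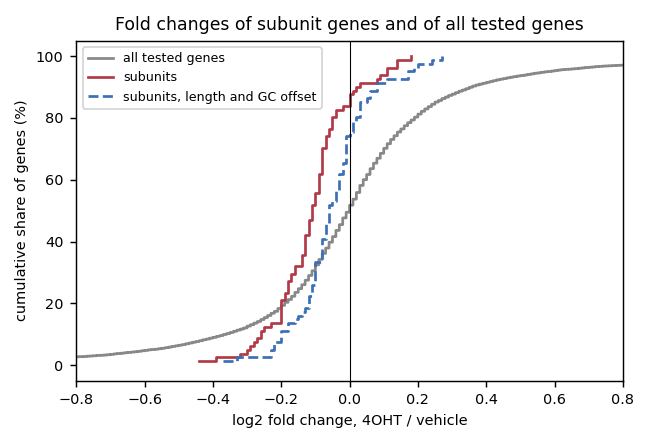
Cumulative share of genes (y axis, %) by log2 fold change, 4OHT over vehicle, for all tested genes (grey), the 81 tested genes of the set, Atp5s and Atp5sl included (red), and the same 81 with the length and GC offset (blue dashes). The median is -0.11 for the subunit genes, -0.06 with the offset and 0 for all tested genes.

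Genes that act with the subunits were also counted, from lists chosen with earlier results of these data known. Assembly factors, which build the complexes without staying in them, had 3 of 49 lower (6.12%, against 10.5% of all tested genes) and 0 higher (median log2 fold change -0.07). Foxred1, a complex I assembly factor, measured 38.2, 38.5 and 38.2 CPM in vehicle and 29.4, 22.9 and 32.5 CPM in 4OHT, without overlap (log2 fold change -0.32, edgeR adjusted p = 0.00258, and 0.117 with DESeq2). Cox14, needed for complex IV, measured 30.1, 30 and 30.3 CPM in vehicle and 22.7, 28.6 and 26.5 CPM in 4OHT. It also fell without overlap (-0.30, edgeR adjusted p = 0.00946, and 0.288 with DESeq2 and 0.12 without 4OHT 1). The third was Sdhaf1, a complex II assembly factor (-0.26, edgeR adjusted p = 0.044), named because the count is small.

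Among 8 carriers and related dehydrogenases outside the name rule, none passed, and the median log2 fold change was -0.08. Of the 13 tested coenzyme Q synthesis genes, none passed either (median -0.01). Mitochondrial ribosomal proteins had 6 of 77 lower (7.79%) and 1 higher (1.3%, against 11.9% of all tested genes), Mrpl16 (median -0.05), with Mrpl12 (-0.23, edgeR adjusted p = 0.013, and 0.102 with DESeq2 and 0.0788 without vehicle 2) and Mrpl36 (-0.25, 0.0207, and 0.295 with DESeq2, 0.0556 with limma-voom, 0.0977 without vehicle 3 and 0.216 without 4OHT 1) among the lower. None of the 13 mitochondrially encoded subunits was found by symbol among the 23999 gene symbols, so they could not be analysed here.

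Of 17 tested regulators of mitochondrial biogenesis, 2 fell (11.8%, near the 10.5% of all tested genes). Esrra, an oestrogen-related receptor, measured 17.4, 18.3 and 18.4 CPM in vehicle and 14.3, 9.55 and 15.2 CPM in 4OHT (log2 fold change -0.30, edgeR adjusted p = 0.0171, and 0.414 with DESeq2, 0.0733 with limma-voom and 0.0551 to 0.0659 without vehicle 2, vehicle 3 or 4OHT 1). Its coactivator Ppargc1b measured 6.44, 6.27 and 5.18 CPM in vehicle and 4.55, 3.82 and 4.57 CPM in 4OHT (-0.40, edgeR adjusted p = 0.0288, and 0.623 with DESeq2, 0.0642 with limma-voom and 0.0631 to 0.152 without vehicle 1, vehicle 2 or 4OHT 1). Neither gene overlapped between the groups, as held in this direction for 16.5% of all tested genes. In 4OHT 2, where 1 read was worth 1.91 CPM, both values rest on few reads. Esrrb, a receptor of the same family listed here among the stem cell markers, measured 797, 805 and 798 CPM in vehicle and 804, 840 and 819 CPM in 4OHT, with overlap (log2 fold change 0.03, adjusted p = 0.738). Ppargc1a, a relative of Ppargc1b, had at most 2 reads in any library. The genes of the other factors whose motifs were searched did not pass: Nrf1 had a log2 fold change of 0.07 (adjusted p = 0.443), Gabpa 0.02 (0.864) and Yy1 -0.01 (0.944).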

How the data were processed

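The authors deposited 1 table of read counts per gene symbol for the 6 samples. Its whole numbers have differing totals, so no size factor had been applied. The submitters' processing notes name STAR, DESeq and the build mm9, while the counting tool, the gene models and any setting for strand stand as not given in the sources used here. Reads of overlapping genes on opposite strands may therefore be shared. Such overlaps cover 39% of the exon bases of Ndufb6 and 30% of those of Ndufa13.

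Groups and replicate numbers came from the labels. The test was that of edgeR 4.0.16 under R 4.3.3 (filterByExpr with a minimum count of 10, TMM factors of 0.979 to 1.017, quasi-likelihood fit, Benjamini-Hochberg adjustment over 14458 genes, threshold 0.05, prior count 0.125), and the procedure was tested on simulated data. Alternatives used DESeq2 1.42.0, limma 3.58.1 (voom, quantile), other scalings and filters, a replicate block, an offset for length and GC content, and leaving out each library. Intervals are at the 95% level and come from the model. For 4OHT 2 the precision is limited by its 515388 counts.

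The pairing check used 3632 genes with log2 CPM above 6. Deviations of same-numbered samples from their group means correlated at 0.57, 0.15 and 0.39 for numbers 1, 2 and 3. These values do not settle whether the numbers mark pairs. The main fit was made without a block, and the fit with the block was an alternative. No label says what a number marks, and vehicle 2 correlated more with 4OHT 3 (0.45). No libraries agreed within sampling noise (lowest chi-square per degree of freedom 1.13, p = 4.21e-18, for 4OHT 2 and 3). Transcript lengths and near-identical genes (blastn 2.17.0, at least 95% identity over at least 50% of the transcript) came from GENCODE vM21, in which all 84 members were found.

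The named genes were, in each complex, the up to 5 tested genes with the smallest adjusted p, the 4 Sdh genes, the paralog groups and up to 2 passing genes of each further list. Members and lists were chosen with earlier results of these data known. The result of 1 further list is not reported here.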

Additional observations from a re-analysis of the deposited data

How the results depend on the processing

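The median log2 fold change of the subunit genes stayed below 0 under every alternative run, from -0.18 without 4OHT 3 to -0.04 without 4OHT 1. No result reversed. Of all tested genes, DESeq2 called 977 and limma-voom 2088, beside 3233 with edgeR. DESeq2 gave 4 lower subunit genes (background 2.83%), the replicate block 29 (13.5%) and the length and GC offset 9 (11.8%). Leaving out 1 library gave 8 to 43 (backgrounds 7.76% to 13.9%). Of all tested genes, 14.6% were higher with the replicate block and 13.2% with the length and GC offset. Higher subunit genes numbered 1 with no filter (Cox7b2), 1 with the replicate block, 3 with the length and GC offset, 4 with the replicate block and that offset together, and 0 to 2 when 1 library was left out.

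By complex, lower genes in complex I numbered 1 with DESeq2 and 11 with the replicate block, and 2 to 18 with 1 library left out. In complex II they numbered 2 with RLE size factors, 3 with no filter, 3 with the replicate block with or without the offset, and 1 to 3 with 1 library left out. In complex III they numbered 0 with DESeq2, 1 with the offset, and 1 to 4 with 1 library left out. In complex IV they numbered 1 with DESeq2, 3 with the offset, and 2 to 8 with 1 library left out. In complex V they numbered 1 each with DESeq2, limma-voom, a mean count of at least 50 and the offset, 7 with the replicate block, and 1 to 10 with 1 library left out. Of all tested genes, 2.83% were lower with DESeq2, 13.5% with the replicate block, 11.8% with the offset and 7.76% to 13.9% with 1 library left out. The shares under the other fits named here are not given. The causes were not tested. Read on the given strand alone, the ETS motif occurred in 1 subunit promoter and the receptor motif in 0.

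Depth limits 4OHT 2, where the median subunit gene has 51 reads and 1 read is worth 1.91 CPM.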

Other observations

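Ndufa4l2, a hypoxia-induced relative of Ndufa4 that was left out of the members, measured 5.48, 4.93 and 8.41 CPM in vehicle 1, 2 and 3 and 1.83, 0 and 1.08 CPM in 4OHT 1, 2 and 3. The groups did not overlap, and its log2 fold change was -2.04 (SE 0.23, adjusted p = 1.03e-06 by edgeR). The lowest log2 fold change of a tested member was -0.44, that of Ndufa8.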
